A study of Mus musculus with 23 samples.

Results

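The genes described here were 36 glycolytic enzymes and members of the hypoxia response, taken by gene symbol from the 24917 loci of the mouse count table. They were chosen by name, though with earlier results of these data known, and each symbol matched 1 locus. RNA had been sequenced from the colonic epithelium of 23 samples of male C57BL/6 mice (C57BL/6J in the study's methods) that started their diets at 6 weeks of age. LF mice, the low-fat controls, ate a 10% fat diet for 43 weeks. HF mice, the obese group, ate a 60% fat diet for 43 weeks. HF-LF mice, the formerly obese group, ate the 60% fat diet for 15 weeks and then the 10% fat diet for 28 weeks. The labels put the samples in 2 batches without saying what a batch was. Batch 1 held 4 LF, 3 HF and 4 HF-LF samples, and batch 2 held 4 LF, 3 HF and 5 HF-LF samples. The methods of the study name fewer mice per diet than there are samples, so some samples may come from the same mouse, and p-values measure the spread between samples. The question was whether these genes differed between the diets, and whether they did so in the same direction in both batches.

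Glycolysis turns glucose into pyruvate, and lactate dehydrogenase turns pyruvate into lactate when it is not passed to the mitochondria. The hypoxia-inducible factors HIF-1 and HIF-2 are transcription factors whose alpha subunits, Hif1a and Epas1, are marked for destruction by prolyl hydroxylases such as Egln1 and Egln3 while oxygen is present. When oxygen is low they accumulate, bind the core letters ACGTG or GCGTG, and raise the transcription of glycolytic enzymes and of genes such as Bnip3 and Vegfa. The colonic surface normally works at low oxygen, since it borders an anaerobic lumen and its cells burn butyrate.

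The core letters ACGTG and GCGTG were searched on both strands in the 250 bases before each RefSeq transcript start (assembly GRCm38.p6). A palindrome CACGTG counts once in each orientation. Of the 36 genes, 34 had a promoter entry (all but Epas1 and Ndrg1), and 31 of these 34 (91.2%) held at least 1 of the cores. Gpi1, Tpi1 and Eno2 held none. Among all genes with an entry the share was 41.5% of 27025, and among genes tested in both batches it was 59.8% of 11101. ACGTG alone stood in 21 of the 34 (61.8%), against 24.5% of the genes tested. The genes had been chosen by name, many of them as known targets of HIF, and a match is a run of letters, not a shown binding site. Of the 11 genes called higher in HF than in LF samples of batch 2, Tpi1 thus held no core, and 5 others are shown here. The 5 promoters below, of 250 bases each, are written 5′ to 3′ along the gene with the cores of either strand in capitals. They lie at chr7:138909507-138909756 (Bnip3, minus strand), chr12:54203875-54204124 (Egln3, minus strand), chr10:59323046-59323295 (P4ha1, plus strand), chr14:45318573-45318822 (Ero1l, minus strand) and chrX:106186850-106187099 (Pgk1, plus strand), directly before exon 1 of each gene.
Bnip3: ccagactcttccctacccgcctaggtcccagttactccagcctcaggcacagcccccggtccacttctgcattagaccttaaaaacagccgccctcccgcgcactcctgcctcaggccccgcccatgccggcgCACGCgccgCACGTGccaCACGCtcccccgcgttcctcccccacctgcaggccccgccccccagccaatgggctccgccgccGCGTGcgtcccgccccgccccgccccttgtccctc
Egln3: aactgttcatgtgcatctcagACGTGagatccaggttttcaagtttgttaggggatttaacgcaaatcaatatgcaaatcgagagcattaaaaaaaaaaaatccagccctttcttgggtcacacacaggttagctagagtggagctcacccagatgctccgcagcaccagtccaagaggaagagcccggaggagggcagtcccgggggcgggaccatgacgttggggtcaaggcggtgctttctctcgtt
P4ha1: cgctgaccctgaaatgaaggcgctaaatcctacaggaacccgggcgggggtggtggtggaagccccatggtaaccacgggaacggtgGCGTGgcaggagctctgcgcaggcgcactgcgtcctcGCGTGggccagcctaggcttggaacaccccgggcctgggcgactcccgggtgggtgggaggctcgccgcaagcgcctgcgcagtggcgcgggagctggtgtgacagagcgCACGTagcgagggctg
Ero1l: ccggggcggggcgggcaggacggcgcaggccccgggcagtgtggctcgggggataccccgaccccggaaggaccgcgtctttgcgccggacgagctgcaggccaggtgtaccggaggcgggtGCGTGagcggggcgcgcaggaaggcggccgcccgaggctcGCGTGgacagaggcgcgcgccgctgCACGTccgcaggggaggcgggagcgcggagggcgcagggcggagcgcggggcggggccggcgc
Pgk1: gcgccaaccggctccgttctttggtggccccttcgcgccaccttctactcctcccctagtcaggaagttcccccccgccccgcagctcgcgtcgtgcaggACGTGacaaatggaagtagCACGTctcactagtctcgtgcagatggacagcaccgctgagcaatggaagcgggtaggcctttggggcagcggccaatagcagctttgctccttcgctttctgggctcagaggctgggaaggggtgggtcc
Bnip3 held 5 matches, a pair of them from 1 palindrome, and the nearest began 35 bases before the start. Pgk1 held 2 matches, Ero1l and P4ha1 held 3 each, and Egln3 held 1, which began 229 bases before the start.

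Levels of different genes were compared per length, as CPM (a gene's counts as parts per 1e6 of its library's TMM-scaled total) divided by kilobases of exon (RPKM, from the union of exons in GENCODE vM21). By this measure Ldha, lactate dehydrogenase A, and aldolase A (Aldoa), which splits fructose bisphosphate, had the highest means of this set in LF samples. Their ranges overlapped in both batches. Ldha stood at 307.0 ± 46.6 RPKM in batch 1 and 273.0 ± 35.5 in batch 2 (mean ± SD, n = 4 each). Ldhb, the subunit that favours the return of lactate to pyruvate, was at 3.54 ± 1.18 and 4.71 ± 0.379. Aldoa stood at 267.0 ± 33.4 and 282.0 ± 21.1, above the brain-type Aldoc at 6.59 ± 1.52 and 6.81 ± 1.58. Pyruvate kinase (Pkm), the last step of glycolysis, stood at 237.0 ± 21.6 and 212.0 ± 18.1. Its range overlapped with those of Ldha and Aldoa in batch 1 and lay below both in batch 2. The levels of Gapdh and Eno1 are uncertain, for reasons given below, so their place in this order is not known.

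Of the phosphofructokinase subunits, which make the committed step, the liver form Pfkl was highest at 45.8 ± 3.89 and 41.5 ± 3.93 RPKM, before the platelet form Pfkp at 18.8 ± 2.09 and 16.2 ± 1.25. The muscle form Pfkm was lowest at 4.24 ± 0.519 and 4.81 ± 0.395. These ranges did not overlap in either batch, but they depend on the exon length used. The union of exons was 13401 bases for Pfkp and 6675 for Pfkl. In CPM Pfkl and Pfkp overlapped in LF samples of batch 1 (271 to 330 and 215 to 280). In batch 2 their CPM were separate (247 to 311 and 194 to 235). Of the enzymes that set fructose 2,6-bisphosphate, the activator of that step, Pfkfb4 was at 9.27 ± 0.265 and 8.78 ± 0.766 and Pfkfb3 at 0.49 ± 0.0347 and 0.355 ± 0.0483. The alpha subunits of both factors were measured: Hif1a at 40.2 ± 3.98 and 24.6 ± 4.0, and Epas1 at 36.7 ± 3.99 and 34.2 ± 3.12. Eno2, the neuronal enolase, had 1 to 15 counts per sample and was too low to test, so 35 of the 36 genes entered every fit.

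**Figure D1:**
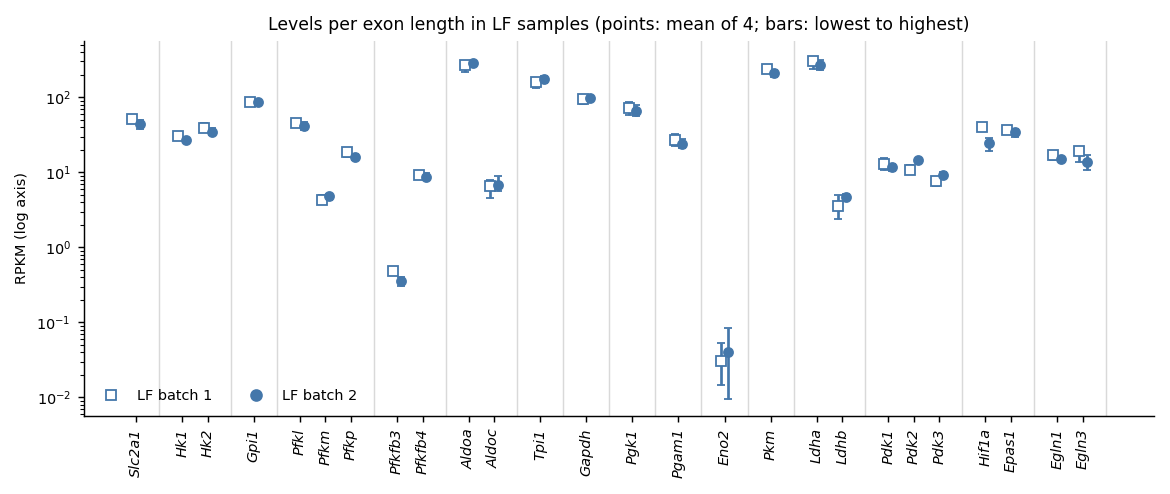
Level per exon length (RPKM, log axis) of 26 of the genes in LF samples of batch 1 (open squares) and batch 2 (filled circles), grouped by enzyme step or family. Points are means of 4 samples and bars run from the lowest to the highest sample. Ldha, Aldoa and Pkm stood above 200 RPKM, and Eno2 lay near the floor of detection.

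Samples held 29189922 to 46498521 counts in batch 1 and 31607019 to 65320947 in batch 2, so that 3 counts equal 0.0459 to 0.103 CPM. Summed markers of epithelium were at 9220 to 13200 CPM in every group, while those of smooth muscle, fibroblasts, endothelium and leukocytes each summed to at most 51.4 CPM. All hemoglobin loci were at 0, but Hba-a1 and Hba-a2 each have more than 1 locus. How reads that match several loci were counted is not given, so this does not show that blood RNA was absent. The remaining erythroid marker, Alas2, was at 0.16 to 3.61 CPM. Replicate 3 of HF batch 1 stood farthest from its group over all genes (median absolute log2 distance 0.231), with replicate 2 of the same group next at 0.215 and all other samples at or below 0.188. Results that rest on these libraries are given with and without them. In bulk RNA of this kind, fewer cells of a type and less RNA per cell cannot be told apart.

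In batch 2, glycolytic and hypoxia genes were higher in HF than in LF samples. By edgeR's quasi-likelihood test, 11 of the 35 genes passed an adjusted p under 0.05 with a fold change above 1.2, all of them higher, beside 3.03% of all 14377 genes tested that were called higher, 4.4% called lower and 7.44% in either direction. They were Hif1a and Egln3 of the oxygen-sensing group, Pfkp, Pfkfb3 and Tpi1 of upper glycolysis, Gapdh, Pgk1 and Pgam1 of lower glycolysis, and Bnip3, Ero1l and P4ha1 of the other targets. Of the 35 genes, 27 had a fitted change above 0, against 48% of all genes, and the median log2 change was 0.16. The HF and LF samples did not overlap for 15 of the genes that were higher (13.8% of all genes) and for 2 that were lower (13.5%), Pdk2 and Ldhb.

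Among the oxygen sensors, Egln3, the prolyl hydroxylase that HIF itself induces, showed the largest of these differences. It read 80.2, 84.5 and 55.3 CPM in HF samples and 28.8, 36.1, 37.7 and 45.2 in LF samples of batch 2. All 3 HF samples lay above all 4 LF samples, and the difference was 0.98 on the log2 scale (1.98-fold, SE 0.15, adjusted p = 0.00878). Hif1a read 174, 219 and 182 CPM in HF and 114, 159, 140.0 and 168 in LF samples. Its groups were separate by a narrow margin, and it was higher by 0.40 on the log2 scale (1.32-fold, SE 0.11, adjusted p = 0.0406). Epas1, the alpha subunit of HIF-2, read 177, 142 and 152 CPM in HF and 209, 193, 196 and 167 in LF samples, which overlapped, and it was not called (log2 change -0.29, SE 0.10, adjusted p = 0.0778).

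Of the upper glycolytic genes, Pfkfb3 read 3.40, 8.05 and 3.94 CPM in HF and 3.02, 2.98, 2.34 and 2.40 in LF samples. HF replicate 2 was far above the rest, and the difference of 0.92 on the log2 scale (1.9-fold, SE 0.25, adjusted p = 0.0403) was 0.47 without it. Pfkp read 289, 276 and 249 CPM in HF and 194, 221, 217 and 235 in LF samples, with no overlap, a difference of 0.32 on the log2 scale (1.25-fold, SE 0.07, adjusted p = 0.0285). Triose phosphate isomerase (Tpi1), which interconverts the products of aldolase, read 578, 636 and 553 CPM in HF and 422, 486, 467 and 534 in LF samples and was higher by 0.30 on the log2 scale (1.23-fold, SE 0.08, adjusted p = 0.0428). The main glucose transporter of the set, Slc2a1, read 171, 174 and 164 CPM in HF and 134, 157, 162 and 174 in LF samples. Its HF values lay within the LF range, and it was not called (log2 change 0.11, SE 0.09, adjusted p = 0.38).

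In lower glycolysis, phosphoglycerate kinase (Pgk1), the first step that yields ATP, read 205, 216 and 188 CPM in HF and 127, 153, 136 and 176 in LF samples. Every HF sample was higher than every LF sample, by 0.46 on the log2 scale (1.37-fold, SE 0.10, adjusted p = 0.028). Phosphoglycerate mutase (Pgam1) read 66.2, 66.7 and 55.3 CPM in HF and 41.6, 47.3, 46.3 and 55.1 in LF samples, where the lowest HF and the highest LF sample nearly met, and was higher by 0.40 on the log2 scale (1.32-fold, SE 0.09, adjusted p = 0.028). Gapdh, which makes the substrate of Pgk1, read 490.3, 543 and 464 CPM in HF and 374, 400.5, 385 and 434 in LF samples and was higher by 0.33 on the log2 scale (1.25-fold, SE 0.09, adjusted p = 0.0391). Gapdh and other enzymes of this path have near-identical processed pseudogenes, and how reads that match several loci were counted is not given in the sources used here, so their levels are uncertain. Eno1 is uncertain for another reason: 98.9% of its locus was shared with a second entry on the same strand that has 0 counts, and Eno1 held only 1995 counts over all samples.

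At the branch between lactate and mitochondria, Ldha read 1154, 1212 and 1034 CPM in HF and 771, 928, 866 and 1052 in LF samples, which overlapped, and was not called (log2 change 0.33, SE 0.10, adjusted p = 0.0512). The pyruvate dehydrogenase kinases, which keep pyruvate from the mitochondria, had values in both directions. Pdk3, an isoform that HIF-1 induces, read 26.4, 30.04 and 28.8 CPM in HF and 21.2, 23.1, 24.2 and 26.2 in LF samples (log2 change 0.26, SE 0.09, adjusted p = 0.0695). Pdk2 read 42.4, 38.3 and 40.5 CPM in HF and 48.1, 46.5, 45.9 and 43.2 in LF samples (log2 change -0.19, SE 0.06, adjusted p = 0.0515). Both pairs of groups were separate, and the fold change of Pdk2 was under the 1.2 that a call needed.

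Of the other HIF targets, Bnip3, a mitochondrial receptor for the removal of mitochondria, read 36.8, 27.03 and 22.6 CPM in HF and 11.9, 17.04, 12.7 and 21.3 in LF samples of batch 2. The 3 HF samples were all higher, by 0.87 on the log2 scale (1.82-fold, SE 0.19, adjusted p = 0.0273). P4ha1, a hydroxylase that matures collagen, read 26.4, 34.97 and 26.02 CPM in HF and 15.2, 18.8, 20.7 and 24.5 in LF samples and was higher by 0.55 on the log2 scale (1.46-fold, SE 0.14, adjusted p = 0.0372). Ero1l (Ero1a in RefSeq), the oxidase that forms disulfide bonds in the endoplasmic reticulum, read 63.8, 66.2 and 53.9 CPM in HF and 44.96, 50.6, 47.9 and 51.6 in LF samples and was higher by 0.33 on the log2 scale (1.26-fold, SE 0.07, adjusted p = 0.0259). Vegfa, the angiogenic growth factor, was not among them. It read 85.4, 87 and 70.6 CPM in HF and 104, 85.3, 85.01 and 82.7 in LF samples, which overlapped (log2 change -0.14, SE 0.09, adjusted p = 0.298).

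**Figure D2:**
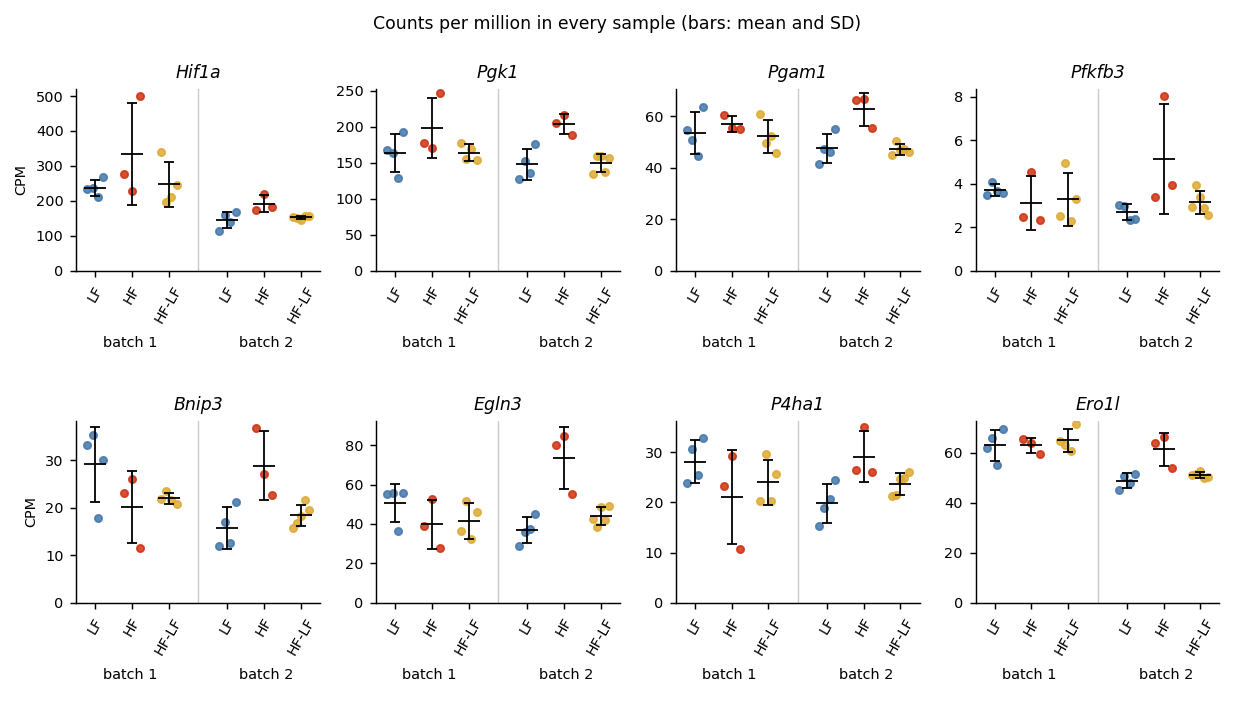
CPM of 8 genes in every sample (points) with the mean and SD of each group (black bars), by diet and batch, each panel with its own axis from 0. In batch 2 the 3 HF samples lay above the LF samples for all 8 genes, while in batch 1 the HF and LF samples overlapped and HF replicate 3 was the lowest sample for Bnip3, Egln3 and P4ha1 and the highest for Hif1a and Pgk1.

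These calls depended on single libraries of batch 2. Without HF replicate 2 the count fell from 11 to 0, with 15 of all genes still called, although the fitted changes of the 11 genes stayed between 0.25 and 0.92. It was 1 without LF replicate 1 (49 of all genes called), 1 without LF replicate 3 (41), 4 without HF replicate 3 (49), 5 without LF replicate 2 (336) and 6 without HF replicate 1 (802), and it reached 15 without LF replicate 4 (2560), where 1069 of all genes were called with every library. With each library left out in turn, 26 to 29 of the 35 genes had a change above 0. DESeq2 called 15 of the genes and 1841 in all. Summed goblet markers moved with the same contrast, at 14400 to 18600 CPM in HF and 20400 to 27500 CPM in LF samples, as did smooth muscle markers at 0.849 to 4.39 and 5.34 to 28.8 CPM, and 1 of the 5 smooth muscle genes was called lower. Of the 5 goblet genes 3 were above 0, 1 of them called higher. The 5 fibroblast genes were all below 0 (median log2 change -1.20), with 3 at an unadjusted p under 0.05 and 0 called. Alas2, the single erythroid marker that could be tested, was called higher by 1.85 on the log2 scale, with erythroid markers summing to 0.463 to 2.12 CPM in HF and 0.16 to 0.665 CPM in LF samples. Their part in the result was not tested.

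In batch 1 no difference of this kind was called. No gene of the set, and 0 of all 14428 genes, passed the threshold by edgeR's quasi-likelihood test (background 0%), with 5 of the 35 at an unadjusted p under 0.05 against 22.2% of all genes, and DESeq2 called 0 of the set and 514 genes in all. The fitted change was below 0 for 27 of the 35, with a median log2 change of -0.14, where 49.5% of all genes were above 0. The 9 other HIF targets were all at or below 0, with a median of -0.42. The groups did not overlap for 2 genes, Pdk2 and Vegfa, both lower in HF (7.19% of all genes), and for 0 that were higher (6.48%).

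The HF values of batch 1 were widely spread. Bnip3 read 23.04, 25.97 and 11.6 CPM in HF and 33.3, 35.3, 17.8 and 30.1 in LF samples (log2 change -0.53, SE 0.25, adjusted p = 0.231). Egln3 read 38.8, 52.9 and 27.8 CPM in HF and 55.04, 55.9, 36.3 and 55.5 in LF samples (log2 change -0.35, SE 0.22, adjusted p = 0.338). P4ha1 read 23.2, 29.2 and 10.8 CPM in HF and 23.8, 30.6, 25.4 and 32.8 in LF samples (log2 change -0.42, SE 0.26, adjusted p = 0.331). In all these HF replicate 3 was the lowest sample of the batch, and the other HF samples lay within or, for P4ha1, partly just below the LF range. Ankrd37, an ankyrin-repeat protein gene induced by HIF, reached the widest spread, at 12.02, 26.1 and 2.54 CPM in HF against 23.8, 19.4, 19.3 and 19.9 in LF samples. Hif1a itself read 276, 227 and 500.5 CPM in HF and 235, 236, 210.5 and 268 in LF samples, where HF replicate 3 was the highest of the batch (log2 change 0.50, SE 0.24, adjusted p = 0.236).

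The glycolytic enzymes that were higher in batch 2 showed no separation here. Pgk1 read 177, 170.3 and 246 CPM in HF and 168, 164, 129 and 192 in LF samples (log2 change 0.28, SE 0.14, adjusted p = 0.264). Gapdh read 419, 392 and 429 CPM in HF and 419, 383, 341 and 412 in LF samples, and Pgam1 read 60.6, 55.3 and 54.97 and 54.8, 50.8, 44.4 and 63.8 CPM. HF values of these genes lay among or above the LF values. Tpi1 read 497, 443 and 448 CPM in HF and 485, 424, 364 and 488 in LF samples, Pfkp 222, 258 and 250.1 and 246, 279.6, 216 and 266, and Pfkfb3 2.49, 4.53 and 2.34 and 3.50, 4.09, 3.66 and 3.59. Ldha read 989.5, 927 and 980.0 CPM in HF and 1075, 1086, 785 and 1113 in LF samples, and Ero1l read 65.4, 63.6 and 59.6 and 61.97, 65.7, 54.9 and 69.3 CPM. Each of these overlapped between the diets. Slc2a1 read 156, 153 and 248 CPM in HF and 176, 182, 177 and 177 in LF samples, with HF replicate 3 above and the other HF samples below the narrow LF range.

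Vegfa and Pdk2 were the pair with no overlap in this batch. Vegfa read 64.1, 110.0 and 66.2 CPM in HF and 116, 127, 130.1 and 112 in LF samples (log2 change -0.60, SE 0.22, adjusted p = 0.173). Pdk2 read 25.3, 29.1 and 13.9 CPM in HF and 34.5, 39.6, 31.4 and 30.5 in LF samples (log2 change -0.58, SE 0.21, adjusted p = 0.173). Pdk3 went the other way, at 28.7, 21.1 and 33.6 CPM in HF and 21.9, 17.1, 19.1 and 19.5 in LF samples (log2 change 0.52, SE 0.17, adjusted p = 0.163). Epas1 read 154, 184 and 164 CPM in HF and 219, 229, 182 and 192 in LF samples (log2 change -0.30, SE 0.11, adjusted p = 0.171). A fit that weights samples by quality (limma voom) called 4 of the genes in batch 1, Epas1, Pdk2 and Vegfa lower and Pdk3 higher, among 2422 genes in all. Without HF batch 1 replicate 2 edgeR called 3, Pdk2 and Vegfa lower and Pdk3 higher, among 1352 genes in all. Without HF batch 1 replicate 3, the sample farthest from its group, edgeR called 0 of the set and 0 genes in all. At an unadjusted p under 0.05 there was then 1 gene of the set, a lower one, in place of 5. Beside it stood 4.55% of all genes higher and 4.44% lower.

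The lower values of batch 1 leaned on HF replicate 3. Without it the change of Bnip3 was -0.25, that of Egln3 -0.15, that of P4ha1 -0.10, that of Ankrd37 -0.12 and that of Hif1a 0.09, while 26 of the 35 genes were below 0 with a median of -0.09. That sample had summed smooth muscle markers of 0.545 CPM, fibroblast markers of 2.88 CPM and endothelial markers of 1.79 CPM, each the lowest of all samples, and proliferation markers of 596.6 CPM, the highest of all samples. In batch 1 all 6 proliferation markers had a change above 0 (median 0.76), 5 of them at an unadjusted p under 0.05, and they summed to 346 to 597 CPM in HF and 226 to 407 CPM in LF samples. Their part in the result was not tested.

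Set side by side, the batches gave opposite directions for many of these genes. Of the 35 genes, 19 (54.3%) were lower in HF samples of batch 1 and higher in batch 2, against 11.6% of 14180 genes tested in both, and 0 went the other way. The count is by sign alone and includes genes with almost no change in batch 1, such as Ero1l (0.997-fold) and Ndrg1 (0.987-fold). The direction was the same for 16 genes (45.7%), against 75.1% of all genes. The contrasts of the batches share no samples as labelled. Among the other HIF targets 8 of 9 turned, in lower glycolysis 1 of 5. With any 1 library of either batch left out, 17 to 21 of the 35 turned (48.6% to 60% of the set, beside 10.7% to 13.7% of all genes).

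The difference between the batches was also tested gene by gene, as the HF minus LF change of batch 2 less that of batch 1. No gene of the set passed an adjusted p under 0.05 by edgeR's quasi-likelihood test, nor did any of 14725 genes (0%), and DESeq2 also called 0 and 0. At an unadjusted p under 0.05 there were 14 of the 35, all with the larger change in batch 2, beside 3.14% of all genes in that direction and 6.5% in both. These were Egln3, Pfkp, Pfkfb3, Pfkl, Gpi1, Pgam1, Pkm, Ldha, Bnip3, Ankrd37, Ero1l, Car9, P4ha1 and Adm. The largest was Bnip3, at 1.42 (SE 0.34, unadjusted p = 0.000423, adjusted p = 0.686), followed by Egln3 at 1.36 (SE 0.29, unadjusted p = 0.000102, adjusted p = 0.686), Ankrd37 at 1.28 (SE 0.56, unadjusted p = 0.0327, adjusted p = 0.762) and Pfkfb3 at 1.21 (SE 0.40, unadjusted p = 0.00613, adjusted p = 0.686). The number at an unadjusted p under 0.05 was 9 of 36 without HF batch 1 replicate 3 (1.58% of all genes in that direction) and 9 of 36 without HF batch 2 replicate 2 (1.56%).

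Of the 19 genes that turned, 12 were called in no comparison. Car9, a carbonic anhydrase, changed by -0.19 on the log2 scale in batch 1 and by 0.15 in batch 2. For adrenomedullin (Adm) the values were -0.42 and 0.23, for P4ha2 -0.28 and 0.16, and for Ndrg1 -0.02 and 0.06. In upper glycolysis hexokinase 2 (Hk2) had -0.16 and 0.08, glucose phosphate isomerase (Gpi1) -0.14 and 0.14, Pfkl -0.34 and 0.13, and Aldoa -0.07 and 0.19. Pkm had -0.16 and 0.13, Pdk1 -0.12 and 0.20, and the sensor Egln1 -0.14 and 0.05. Ankrd37 had -0.62 and 0.64. Slc2a1, Hk1, Pfkm, Pfkfb4, Aldoc, Ldhb and Eno1 were among the 16 genes with the same direction in both batches.

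**Figure D3:**
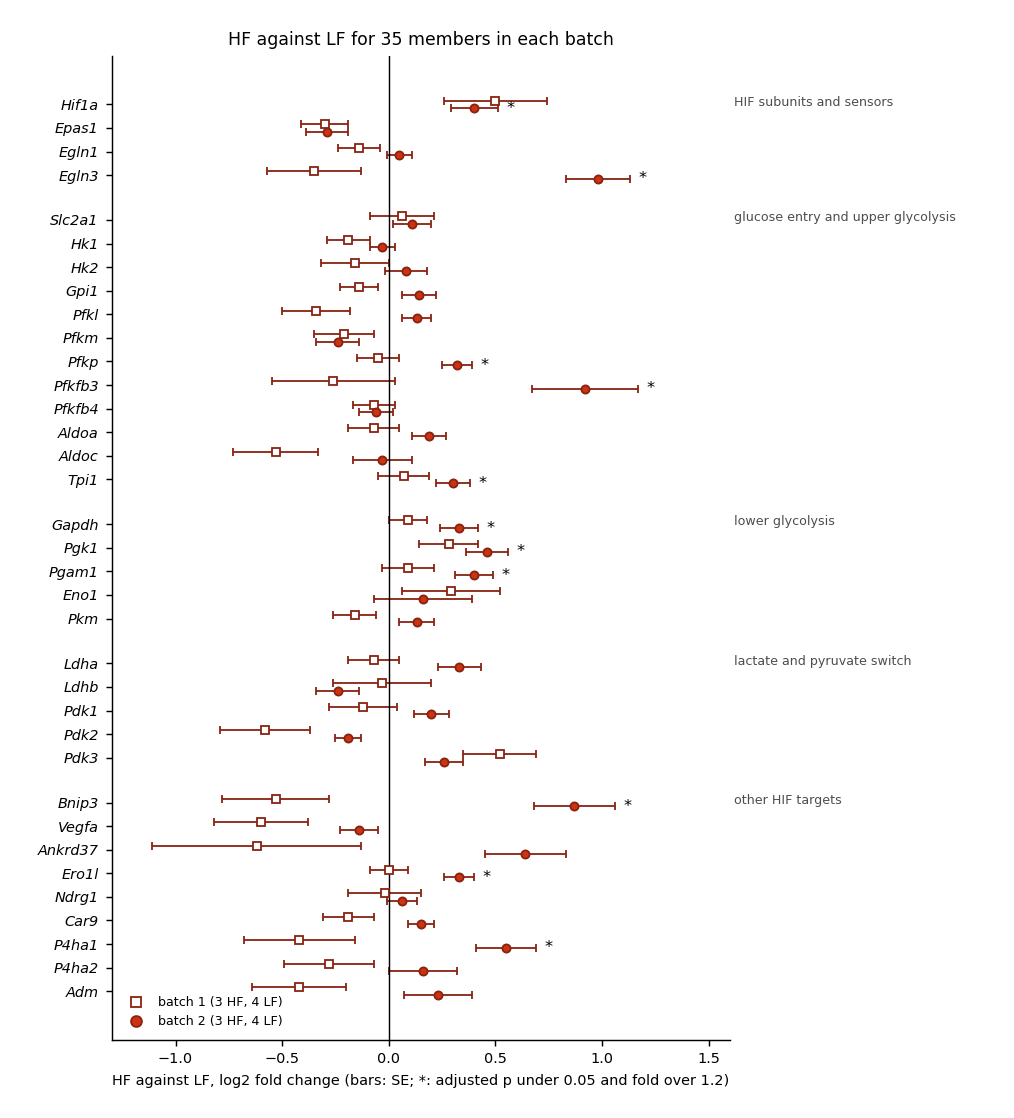
Log2 fold change of HF against LF for the 35 tested genes, by role, in batch 1 (open squares) and batch 2 (filled circles), with SE as bars and a star for genes called (adjusted p under 0.05, fold above 1.2). All 11 stars are in batch 2 and above 0, and 27 of the 35 open squares lie below 0.

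The level of the controls differed between the batches as well, and batch cannot be told apart from anything else that differed between the sample sets. Bnip3 in LF samples was at 29.1 ± 7.82 CPM in batch 1 and 15.7 ± 4.34 in batch 2 (mean ± SD), and HF samples of batch 2 at 28.8 ± 7.29. P4ha1 was at 28.1 ± 4.25 and 19.8 ± 3.89 CPM in LF and at 29.1 ± 5.07 in HF samples of batch 2. Hif1a was at 237 ± 23.5 and 145 ± 23.6 CPM in LF samples. For Bnip3 and P4ha1 the HF samples of batch 2 lay at about the level of the LF samples of batch 1, and these values are given without a test.

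In formerly obese mice the batch 2 pattern was not kept. Between HF-LF and HF samples of batch 2, 11 of the 35 genes were called, all of them lower in HF-LF (5.61% of all genes lower, 8.89% higher, 14.5% in either direction): Hif1a, Egln3, Pfkfb3, Tpi1, Gapdh, Pgk1, Pgam1, Ldha, Pdk3, Bnip3 and Ero1l. The groups did not overlap for 16 genes that were lower in HF-LF (12.4% of all genes) and 1 that was higher (14.6%). The HF samples of this contrast are those of the contrast with LF, so the lists share them.

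Pgk1 read 134, 159.7, 159.7, 136 and 157 CPM in the 5 HF-LF samples, all below the HF samples, and fell by 0.44 on the log2 scale (SE 0.10, adjusted p = 0.0146). Pgam1 read 44.96, 50.5, 46.9, 47.3 and 46.2 CPM and fell by 0.41 on the log2 scale (SE 0.08, adjusted p = 0.0138). Gapdh read 361, 431, 439, 361 and 400.4 CPM and fell by 0.33 on the log2 scale (SE 0.08, adjusted p = 0.0215). Against LF samples Pgam1 differed by -0.01 and Gapdh by 0.00, neither of them called. Tpi1 read 431, 505, 481, 452 and 485 CPM and fell by 0.32 on the log2 scale (SE 0.08, adjusted p = 0.0206). Ldha read 859, 957, 963, 841 and 944 CPM and fell by 0.31 on the log2 scale (SE 0.09, adjusted p = 0.0345). Pdk3 read 18.9, 23.4, 21.04, 20.1 and 23.5 CPM and fell by 0.41 on the log2 scale (SE 0.08, adjusted p = 0.0138).

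Bnip3 read 15.7, 16.9, 18.2, 21.6 and 19.6 CPM in HF-LF samples, all below the lowest HF sample, and fell by 0.64 on the log2 scale (SE 0.18, adjusted p = 0.0276). Egln3 read 42.3, 38.2, 48.5, 41.98 and 49.3 CPM, also without overlap, and fell by 0.73 on the log2 scale (SE 0.14, adjusted p = 0.0131). Hif1a read 155, 151, 145, 158 and 156 CPM, within a narrow range below the HF samples, and fell by 0.33 on the log2 scale (SE 0.10, adjusted p = 0.0395). Ero1l read 50.97, 51.5, 52.6, 50 and 50.05 CPM and fell by 0.26 on the log2 scale (SE 0.07, adjusted p = 0.0216). Pfkfb3 read 2.93, 3.94, 3.39, 2.90 and 2.58 CPM, which overlapped with HF, and fell by 0.70 on the log2 scale (SE 0.23, adjusted p = 0.049). P4ha1 at 21.3, 21.5, 24.7, 24.9 and 26.1 CPM and Pfkp at 245, 221, 227, 228 and 230.0 CPM were not called (log2 differences of -0.29 and -0.24).

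The count of 11, among 2084 of all genes, was 0 without HF batch 2 replicate 2 (11 of all genes), 6 without HF-LF replicate 1 (880), 6 without HF-LF replicate 4 (957) and 8 to 14 otherwise, with 14 without HF-LF replicate 2 (2778). In batch 1 no gene of the set was called between HF-LF and HF samples by edgeR (1 gene of 14428 in all, 0.00693%), 3 were at an unadjusted p under 0.05 (10.9% of all genes) and DESeq2 called 0. Here the 9 other HIF targets were all above 0, with a median of 0.17. HF-LF samples of batch 1 read 21.9, 23.4, 21.7 and 20.8 CPM for Bnip3, 36.2, 51.8, 32.2 and 46.3 CPM for Egln3, 339, 196, 211 and 245 CPM for Hif1a and 178, 156, 169 and 153 CPM for Pgk1. All 4 genes overlapped with the HF samples of that batch, whose spread was wider.

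Between HF-LF and LF samples no gene of the set was called in batch 1 (background 0%), in batch 2 (0.00696%) or over both (0%) by edgeR's quasi-likelihood test. At an unadjusted p under 0.05 there were 2, 1 and 1 genes (5.29%, 4.65% and 4.11% of all genes), and DESeq2 called 0 in each. The median log2 change over the 35 genes was -0.08 in batch 1, 0 in batch 2 and -0.03 over both, and single genes ran from -0.46 to 0.31 in batch 1 and from -0.18 to 0.26 in batch 2. Between these groups an approximate 95% interval, from the SE and a normal spread, ran from -0.11 to 0.55 for Bnip3 in batch 2. That for Pgk1 ran from -0.16 to 0.19. Such intervals leave out the few degrees of freedom and are somewhat too narrow. The fitted HF change of batch 2 lay outside the interval for Pgk1 and for Bnip3, but that change has an error of its own.

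**Figure D4:**
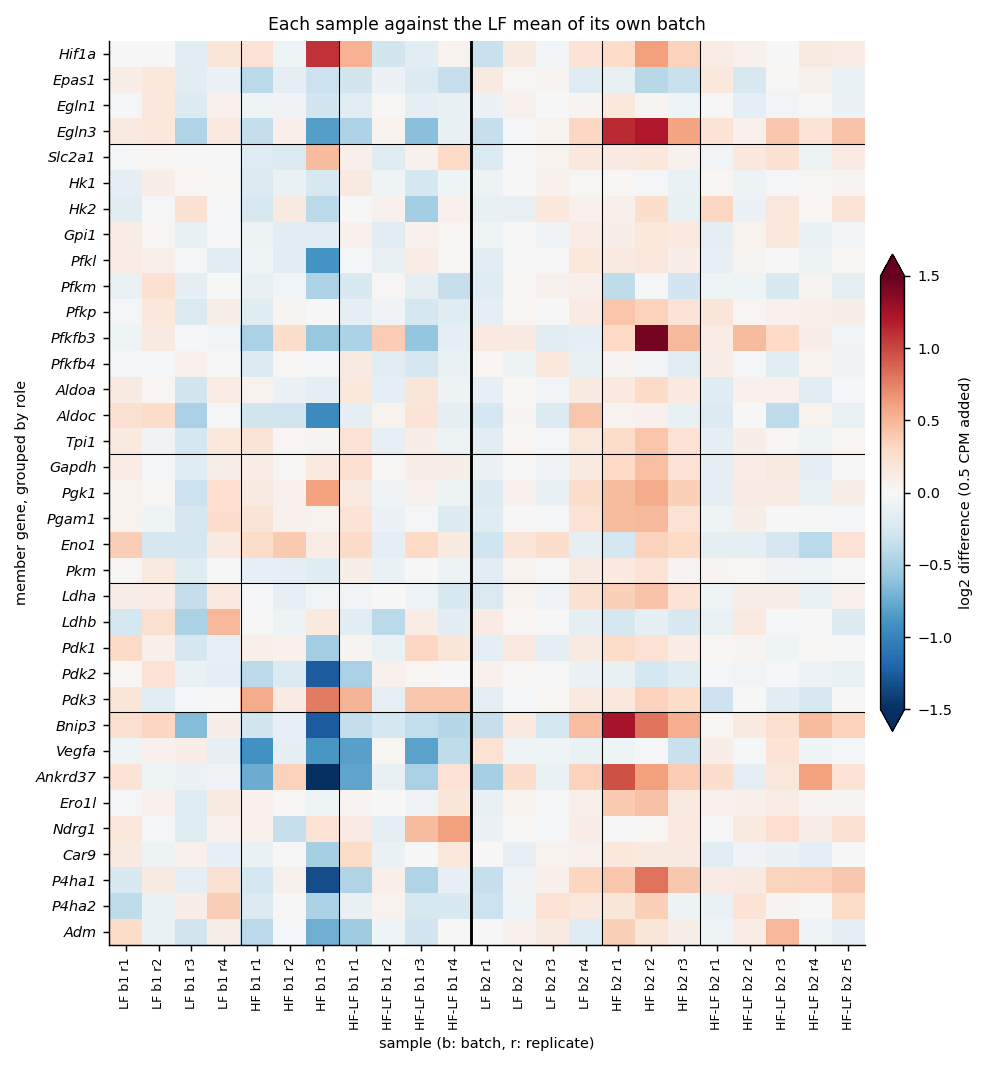
Log2 difference of each sample from the mean of the LF samples of its own batch (colour, 0.5 CPM added before the logarithm), for 35 genes in rows by role and 23 samples in columns by batch and diet. HF samples of batch 2 were above the LF mean for 24 to 29 of the 35 genes, HF samples of batch 1 for 10 to 15, and HF-LF samples of batch 2 for 16 to 22. Single LF samples ran from 6 to 22 genes in batch 1 and from 6 to 27 in batch 2. These ranges overlapped with those of the HF samples in both batches.

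Over both batches with batch as a term, 6 of the 35 genes were called between HF and LF samples, 3 higher and 3 lower, beside 18.1% of all genes, 9% higher and 9.11% lower. The set was thus called about as often as all genes were, in either direction. Hif1a, Pgk1 and Pdk3 were higher, by 0.45 on the log2 scale (1.37-fold, SE 0.13, adjusted p = 0.0189), 0.37 on the log2 scale (1.29-fold, SE 0.09, adjusted p = 0.00825) and 0.39 on the log2 scale (1.31-fold, SE 0.11, adjusted p = 0.0145). Epas1, Pdk2 and Vegfa fell, by 0.29 on the log2 scale (SE 0.08, adjusted p = 0.0109), 0.37 on the log2 scale (SE 0.12, adjusted p = 0.0231) and 0.38 on the log2 scale (SE 0.13, adjusted p = 0.0394). All 6 had the same direction in both batches. The alpha subunits of HIF-1 and HIF-2 went opposite ways, as did the kinases Pdk3 and Pdk2. Bnip3, Egln3, Pfkfb3 and P4ha1 had log2 changes of 0.19, 0.35, 0.36 and 0.07 and were not called. Without LF batch 1 replicate 2 the count of 6, among 2605 of all genes, was 3 (1859 of all genes), and without HF batch 2 replicate 2 it was 4 (1826). Without HF batch 1 replicate 3 the count was 5 (1591). That library held the highest Hif1a (500.5 CPM) and Pgk1 (246 CPM) of batch 1. In the same contrast 4 of 6 proliferation markers (median 0.45) and 2 of 5 goblet markers were called higher and 1 of 5 fibroblast markers lower, and their part in the result was not tested. Between HF-LF and HF samples 4 genes were called, all lower in HF-LF, beside 4.9% of all genes that were lower and 10.3% in either direction: Hif1a, Pgk1, Pgam1 and Pdk3. That count, among 1488 of all genes, was 1 without HF batch 2 replicate 2 (544). With 501 to 1560 of all genes called, it was 2 without LF batch 1 replicate 1, without replicate 1 or 3 of HF in either batch, without HF-LF batch 1 replicate 2 or 4, and without replicate 1, 2, 3 or 4 of HF-LF batch 2.

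Other genes of the same pathways were listed apart from the 36. In batch 2, 3.03% of all genes were called higher in HF than in LF samples, 4.4% lower and 7.44% in either direction. Of 14 other glycolysis genes tested there, 2 were called higher and 0 lower. These were Slc16a3, the transporter that exports lactate, at 1.36 on the log2 scale (SE 0.17, adjusted p = 0.00224), and Bpgm, which makes 2,3-bisphosphoglycerate, at 0.42 on the log2 scale (SE 0.07, adjusted p = 0.0149). Both were lower in HF-LF than in HF samples of batch 2, by -1.06 on the log2 scale (SE 0.16, adjusted p = 0.00703) and -0.38 on the log2 scale (SE 0.07, adjusted p = 0.0118). Of 10 genes of pyruvate oxidation 0 were called between HF and LF samples of batch 2. By edgeR 4 were at an unadjusted p under 0.05, beside 4761 of all 14377 genes. Of 19 other HIF pathway genes 1 was called, lower, the HIF inhibitor Cited2 at -0.43 on the log2 scale (SE 0.09, adjusted p = 0.0259). In batch 1 edgeR called 0 of the 15, 10 and 20 genes of these lists (0% of all genes), with 5, 3 and 6 at an unadjusted p under 0.05 (22.2% of all genes).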

How the data were processed

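RNA of 23 samples of colonic epithelium, isolated with EDTA, was sequenced from stranded libraries depleted of ribosomal RNA. The authors deposited counts of reads per gene locus, without normalization, made with cutadapt 1.2.1, STAR 2.5 (mm10) and featureCounts 1.5.0-p1, by the submitters' processing notes. The strand setting and the treatment of reads that match several loci are not given in the sources used here. The genes and all lists were chosen with earlier results of these data known. Genes are named with full values where called in any fit, plus Slc2a1. Other genes of the set are given by counts and ranges, with values where the batches went opposite ways.

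The tests used the quasi-likelihood F test of edgeR 4.0.16 under R 4.3.3 after TMM scaling and filterByExpr, with the 3 diets of a batch in 1 fit, over both batches with batch as a term, and with a batch by diet interaction. Calls needed a Benjamini-Hochberg adjusted p under 0.05 over all genes and a fold above 1.2. The interaction needed the adjusted p alone. CPM were scaled over all 23 samples. Alternatives were DESeq2 1.42.0, limma 3.58.1 voom, other size factors, no filter, a replicate block and leaving out each library. Replicates of a group were compared, and none of 34 pairs lay within sampling noise. Floors of 3 counts cover counting error only. Values of 1 other glycolysis gene are not reported here.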

Additional observations from a re-analysis of the deposited data

Results flagged for a closer look

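Of 144 groups of 4 or 5 samples, 6 held a sample far from the others of its group by Dixon's criterion, which flags about 5% of groups by chance. In LF batch 1, replicate 3 was low for Egln3 (36.3 CPM, others 55.0 to 55.9) and for Ldha (785 CPM, others 1080 to 1110), and replicate 1 was high for Ankrd37 (23.8 CPM, others 19.3 to 19.9). In HF-LF batch 1, replicate 3 was low for Hk2 (161 CPM, others 229 to 239) and replicate 1 was low for Pdk2 (23.9 CPM, others 34.1 to 35.6). In LF batch 2, replicate 1 was high for Vegfa (104 CPM, others 82.7 to 85.3). The same LF replicate 3 of batch 1 was below the LF mean for 29 of the 35 genes.

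For 7 genes every HF sample of batch 1 lay below the LF mean of its batch and every HF sample of batch 2 above it. The share of all genes that met this rule was not computed, so whether 7 is many cannot be said. The difference of the HF against LF log2 change, batch 2 minus batch 1, was 1.42 for Bnip3 (SE 0.34), 0.67 for Adm (SE 0.27), 0.49 for Pfkl (SE 0.18), 0.42 for Ldha (SE 0.16), 0.36 for Car9 (SE 0.14), 0.31 for Pkm (SE 0.12) and 0.29 for Gpi1 (SE 0.11). By edgeR's quasi-likelihood test of the interaction their unadjusted p ran from 0.000423 to 0.0225 and their adjusted p from 0.686 to 0.742, so none passed the correction.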

How the results depend on the processing

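Median-of-ratios size factors, no filter on low counts and DESeq2 left every count of called genes within 1.5 times of the reported one. In batch 1, limma voom with sample weights called 4 genes of the set between HF and LF in place of 0, among 2422 of all genes. With each library left out in turn, the number of genes of the set called between HF and LF ranged from 0 to 3 in batch 1, from 0 to 15 in batch 2 and from 3 to 7 over both. Between HF-LF and HF it ranged from 0 to 14 in batch 2 and from 1 to 5 over both. Over all genes the ranges for HF against LF were 0 to 1352, 15 to 2560 and 1591 to 3703. For HF-LF against HF they were 11 to 2778 and 501 to 2669. The interaction and HF-LF against LF gave 0 throughout. Over 1444 recomputed values of single genes, 1272 kept direction and side of the threshold, 140 fell short of it, 7 passed it and 25 turned, all 25 in HF against LF over both batches. Of these, Pkm was 0.01 without the filter on low counts and Ankrd37 was -0.20 with same-numbered samples of a diet taken as 1 mouse (correlation -0.102). The others turned only when a library was left out, with ranges of -0.05 to 0.09 for Car9, -0.03 to 0.03 for Pkm, -0.09 to 0.03 for Hk2, -0.12 to 0.04 for P4ha2, -0.12 to 0.32 for Ankrd37, -0.08 to 0.01 for Egln1, -0.13 to 0.04 for Pfkl, -0.16 to 0.03 for Adm and -0.04 to 0.27 for P4ha1. The cause was not tested. Replicate numbers were not taken to pair the samples: 10 of 20 same-numbered pairs of a batch had a correlation of deviations above 0.1 (median 0.094), beside 19 of 67 differently numbered pairs (median -0.024), and 9 of 22 samples correlated best with their own number. A replicate block called 0 genes of the set for HF against LF in batch 1 (92 of all genes). It called 15 in batch 2 (2080) and 7 over both (2854). For HF-LF against HF it called 13 in batch 2 (2815) and 3 over both (1734). Eno2 could not be tested at 1 to 15 counts per sample.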

Other observations

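Over both batches, genes next to the set differed between HF and LF samples in both directions, by edgeR's quasi-likelihood test. Of all genes 18.1% were called in this contrast, 9% higher and 9.11% lower. Among other glycolysis genes Bpgm was higher by 0.40 on the log2 scale. Lower were 3 genes: the insulin-responsive transporter Slc2a4 fell by 0.86, the fructose transporter Slc2a5 by 0.54 and the hexokinase-like Hkdc1 by 0.32. Of 10 genes of pyruvate oxidation, Mpc2, a subunit of the mitochondrial pyruvate carrier, was higher by 0.32 and Pdhx, a part of the pyruvate dehydrogenase complex, by 0.33, while the phosphatase Pdp2 fell by 0.33. Of 20 other HIF pathway genes, Angptl4, an inhibitor of lipoprotein lipase that lipid also induces, was higher by 0.59 and Fam162a by 0.39, while Cited2 fell by 0.34 and the demethylase Kdm4b by 0.28. Between HF-LF and HF samples Angptl4 fell by 0.78, Bpgm by 0.37, Mpc2 by 0.37 and Pdhx by 0.34, and Slc2a5 was higher by 0.58, Ak4 by 0.47 and Pdp2 by 0.30. In that contrast 10.3% of all genes were called, and 4.9% of all genes were called lower.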
